A study of Mus musculus with 2 samples.

Results

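Granins are acidic secretory proteins that pack hormones into the dense-core granules of endocrine and nerve cells, and prohormone processing is the set of cuts that turns granule precursors into active peptides. In the adrenal medulla both take place in chromaffin cells, which store catecholamines together with chromogranins. Within the granule, the convertases Pcsk1 and Pcsk2 cut precursors after pairs of basic residues, carboxypeptidase E trims the basic residues left behind, and the chaperones Scg5 and Pcsk1n hold the convertases in check. The genes described are 10 members of these families (Chga, Chgb, Scg2, Scg3, Scg5, Vgf, Pcsk1, Pcsk2, Pcsk1n and Cpe), taken by gene name from the transcript models of both libraries, of 18580 annotated genes with reads. They held 149 of 97057 transcript models on annotated genes in replicate 1 and 145 of 114670 in replicate 2.

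The tissue was adrenal gland of male mice of the F1 hybrid strain B6CASTF1/J, aged 10 day, in a single group of 2 biological replicates with no treatment in the labels. Total RNA with added spike-in RNAs was sequenced as long reads, and the labels state a starting amount of 1 µg for replicate 2. The labels give both samples 1 donor and number the animal of replicate 2 in different ways, so separate animals are not assured. Every p-value below takes account only of the sampling of reads in 2 libraries. None measures the variation between libraries or between animals. Replicate 1 had 927914 reads on annotated genes and replicate 2 had 1303420. A read is 1 cDNA, so a level is given as reads per 1000000 reads on annotated genes (CPM) with no division by length. A gene with no reads could still have 3.23 CPM in replicate 1 or 2.30 CPM in replicate 2.

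The libraries differed in makeup and in the length of the transcript models that their reads lay on. Reads lay on models that averaged 2335 bases in replicate 1 and 1904 bases in replicate 2, and single-exon fragments took 3.62% and 10.1% of gene reads in replicates 1 and 2. Hepatocyte markers were lower in replicate 1 for 7 of 7 genes (Fisher's exact test, threshold of 0.05 on the adjusted p, as for all calls) and summed to 9360 CPM in replicate 1 against 28082 CPM in replicate 2, with Alb at 5054 and 8696 CPM, Ahsg at 1648 and 7233 CPM and Apoa1 at 1301 and 5068 CPM in replicates 1 and 2. Erythroid markers were lower in replicate 1 for 4 of 5 genes, and summed to 1329 and 4599 CPM in replicates 1 and 2. Brown fat markers summed to 7735 and 7794 CPM in replicates 1 and 2, with Ucp1 higher and the other 3 of 4 (Cidea, Adipoq and Fabp4) lower in replicate 1. Adrenal cortex markers summed to 33253 and 21446 CPM in replicates 1 and 2, with 6 of 8 cortex genes higher and 1 lower in replicate 1. Chromaffin markers summed to 3963 CPM in replicate 1 against 2221 CPM in replicate 2, with 4 of 10 genes higher and 1 lower in replicate 1. Th, the first enzyme of catecholamine synthesis, had 2317 and 1029 CPM in replicates 1 and 2, Cyb561 of the granule membrane 566 and 250.1 CPM, and Pnmt, which makes adrenaline, 639 and 707 CPM in replicates 1 and 2, the last not past the threshold. Sympathetic neuron markers summed to 88.4 and 126.6 CPM and glial markers to 65.7 and 98.2 CPM in replicates 1 and 2, with 2 genes of each lower in replicate 1 (of 6 and 4 tested). Markers of pituitary and pancreatic endocrine cells, which also make granins, were at or near 0: Gh, Prl, Ins1, Ins2 and Gcg had 0 reads in both libraries, Pomc had 0 and 2 reads and Tshb 0 and 1 read in replicates 1 and 2. Over all genes tested, 22.2% were higher and 13.0% lower in replicate 1. The part of these mixtures in the results below was not tested, and fewer cells of a type cannot be told apart from less RNA per cell.

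The granins dominated the group. Together the 10 genes reached 10690 CPM in replicate 1 against 5344 CPM in replicate 2, and the 5 granins Chga, Chgb, Scg2, Scg3 and Vgf made up 9667 CPM in replicate 1 and 4693 CPM of it in replicate 2. Chgb (chromogranin B) had 3947 reads or 4254 CPM in replicate 1 and 2555 reads or 1960 CPM in replicate 2. Chga (chromogranin A) had 3617 reads or 3898 CPM in replicate 1 and 2898 reads or 2223 CPM in replicate 2. Chgb ranked 11 and Chga 14 among all genes in replicate 1, and they ranked 39 and 32 in replicate 2. By all reads, the more abundant of the pair thus changed between the libraries. There were 0.916 Chga reads per Chgb read in replicate 1 (95% interval 0.876 to 0.959) and 1.13 in replicate 2 (1.08 to 1.20), and the intervals lie on opposite sides of 1.

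Scg2 (secretogranin II, the precursor of the peptide secretoneurin) was the third granin, with 1361 reads or 1467 CPM in replicate 1 and 615 reads or 472 CPM in replicate 2. It ranked 58 in replicate 1 and 329 in replicate 2, the largest change in rank of the 4 abundant members. Scg3 (secretogranin III, which ties chromogranin A to the granule membrane) had 27 reads or 29.1 CPM in replicate 1 and 35 reads or 26.9 CPM in replicate 2. There were 134.0 Chga reads per Scg3 read in replicate 1 (91.9 to 203.6) and 82.8 in replicate 2 (59.4 to 119.1). Vgf, a granin-like precursor induced by nerve growth factor, had the lowest mean of the group, with 18 reads or 19.4 CPM in replicate 1 and 14 reads or 10.7 CPM in replicate 2.

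Of the processing enzymes, only Cpe (carboxypeptidase E) was abundant. It had 728 reads or 785 CPM in replicate 1 and 617 reads or 473 CPM in replicate 2. Pcsk1 (prohormone convertase 1/3) had 27 reads or 29.1 CPM in replicate 1 and 18 reads or 13.8 CPM in replicate 2. Pcsk2 (prohormone convertase 2) had 25 reads or 26.9 CPM in replicate 1 and 7 reads or 5.37 CPM in replicate 2, so its level in replicate 2 rests on very few reads (95% Poisson interval 2.16 to 11.1 CPM). The 2 convertases together gave 56.0 CPM in replicate 1 against 19.2 CPM in replicate 2.

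Both chaperones had more reads than the enzymes they bind. Pcsk1n (proSAAS, an inhibitor of Pcsk1) had 92 reads or 99.1 CPM in replicate 1 and 151 reads or 115.8 CPM in replicate 2. Scg5 (7B2, which is needed for Pcsk2 to mature and also inhibits it) had 77 reads or 83.0 CPM in replicate 1 and 55 reads or 42.2 CPM in replicate 2. There were 3.41 Pcsk1n reads per Pcsk1 read in replicate 1 (2.20 to 5.44) and 8.39 in replicate 2 (5.13 to 14.5). For Scg5 per Pcsk2 read the values were 3.08 in replicate 1 (1.94 to 5.05) and 7.86 in replicate 2 (3.57 to 20.5). All 4 lower bounds lie above 1. Between the libraries, Fisher's exact test of these reads gave an unadjusted p of 0.0079 for Pcsk1n and Pcsk1 and of 0.043 for Scg5 and Pcsk2, among 45 pairs of members compared. The main transcripts differ in length, with 5040 bases for Pcsk1 and 4723 for Pcsk2 against 2193 for Pcsk1n and 1208 for Scg5. Ratios between the libraries moved with transcript length over all genes, as given below. The part of length in these read ratios and in their change was not tested.

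**Figure D1:**
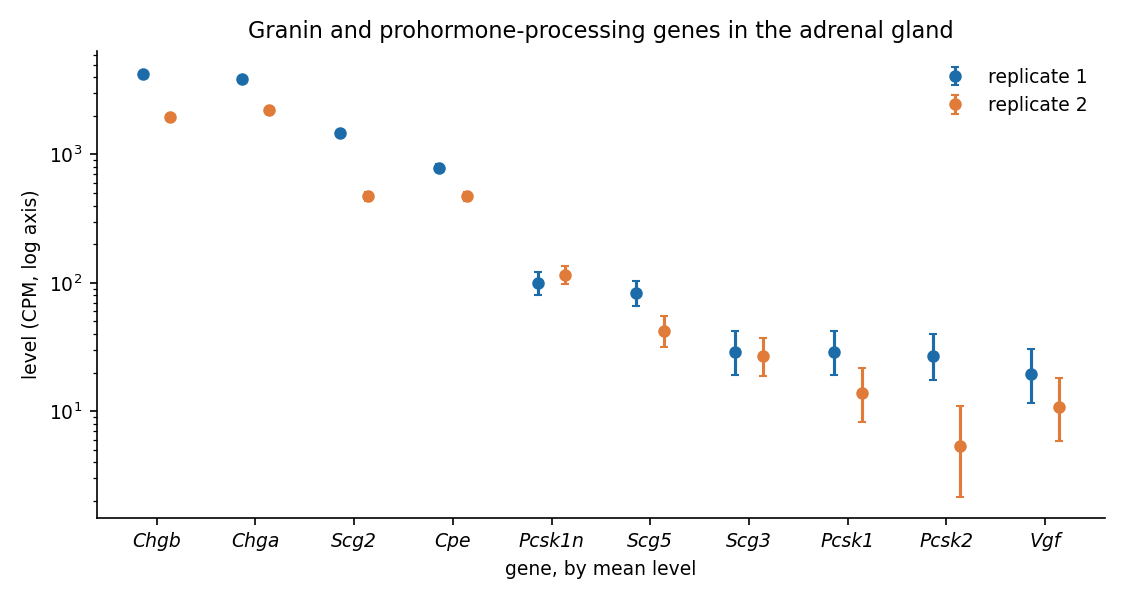
Level of each gene in CPM (log axis) in replicate 1 (blue) and replicate 2 (orange), with exact 95% Poisson intervals of the reads. Chgb, Chga, Scg2 and Cpe stand above the other 6 genes in both libraries, with 472 CPM as their lowest value (Scg2 in replicate 2) and 115.8 CPM as the highest of the others (Pcsk1n in replicate 2).

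The order of the genes by mean level was Chgb (3107 ± 1622 CPM, mean ± SD, n = 2 here and below), Chga (3061 ± 1184), Scg2 (969 ± 703), Cpe (629 ± 220.0), Pcsk1n (107.5 ± 11.8), Scg5 (62.6 ± 28.8), Scg3 (28.0 ± 1.59), Pcsk1 (21.5 ± 10.8), Pcsk2 (16.2 ± 15.3) and Vgf (15.1 ± 6.12). Chgb and Chga differed by less than their spread, as did Scg2 and Cpe. By all reads, but not by reads assigned to annotated transcripts alone, Chgb stood above Chga in replicate 1 and below it in replicate 2. Scg2 stood above Cpe in replicate 1, with 1361 against 728 reads, and the pair was level within counting error in replicate 2, with 615 and 617 reads. The last 4 genes could not be ordered within replicate 1, where their Poisson intervals all overlap. Divided by the length of the main transcript, the mean levels were 1625 CPM per kb for Chga, 1134 for Chgb, 385 for Scg2, 297.1 for Cpe, 51.8 for Scg5, 49.0 for Pcsk1n, 13.0 for Scg3, 5.90 for Vgf, 4.26 for Pcsk1 and 3.42 for Pcsk2. On this scale Chga stood before Chgb, Scg5 before Pcsk1n, and the convertases came last.

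Of the 10 genes, 7 were higher in replicate 1 and 0 were lower, when the reads of each gene were set against the rest of the library (Fisher's exact test, two-sided, Benjamini-Hochberg adjustment over 11650 genes). The background share was 22.2% of all genes tested higher in replicate 1 (2581 genes) and 13.0% lower (1510 genes). No member was lower at an unadjusted p under 0.05 either, with 4961 genes past that level in all. The median log2 ratio of replicate 1 over replicate 2 was 0.91 over the 10 genes and 0.25 over all genes tested. Scaling by edgeR's TMM factors moved every log2 ratio by -0.26 and the median of all genes to -0.01, and gave 1328 genes higher and 1981 lower. Under that scaling 6 members were higher and 1 lower.

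Scg2 differed most among the abundant members, 3.11-fold higher in replicate 1 (95% interval 2.82 to 3.42, Fisher's exact test, adjusted p = 1.1e-129). Chgb was 2.17-fold higher (2.06 to 2.28, adjusted p = 1.7e-208), Chga 1.75-fold (1.67 to 1.84, adjusted p = 5.9e-111) and Cpe 1.66-fold (1.49 to 1.85, adjusted p = 8.3e-19). Among the less abundant genes Pcsk2 was 5.02-fold higher (2.11 to 13.7, adjusted p = 2.5e-04) and Scg5 1.97-fold (1.37 to 2.83, adjusted p = 7.5e-04). Pcsk1 was 2.11-fold higher (1.12 to 4.06) with an adjusted p of 0.044, and lost its call under 6 alternatives, with adjusted p between 0.060 and 0.51. The other 3 genes did not pass: Scg3 with a ratio of 1.08 (0.631 to 1.84, adjusted p = 0.89), Vgf with 1.81 (0.849 to 3.92, adjusted p = 0.21) and Pcsk1n with 0.856 (0.653 to 1.12, adjusted p = 0.39). Pcsk1n was called lower in replicate 1 with TMM factors (log2 ratio -0.49, adjusted p = 0.037) and with DESeq2 size factors (-0.48, adjusted p = 0.043).

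The ratio between the libraries moved with transcript length over all genes, and 8 of the 10 members stood above that trend. The trend is a running median, which by construction has about as many genes above it as below. The running median of the log2 ratio over 501 genes of similar length was -0.07 at the 1208 bases of Scg5, 0.32 at the 1883 bases of Chga, 0.40 at the 2515 bases of Scg2 and 0.49 at the 4723 bases of Pcsk2. Less this trend, the log2 ratio was 1.77 for Pcsk2, 1.23 for Scg2, 1.04 for Scg5, 0.63 for Chgb, 0.49 for Chga and 0.40 for Cpe, and these 6 remained past the threshold (exact binomial test, adjusted p of 0.012 or less). Pcsk1 and Vgf stood above the trend but did not pass the same test (adjusted p = 0.45 and 0.61). Pcsk1n lay 0.61 below the trend (adjusted p = 0.0082). Over all genes set against the trend, 1096 were higher in replicate 1 and 1448 lower.

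**Figure D2:**
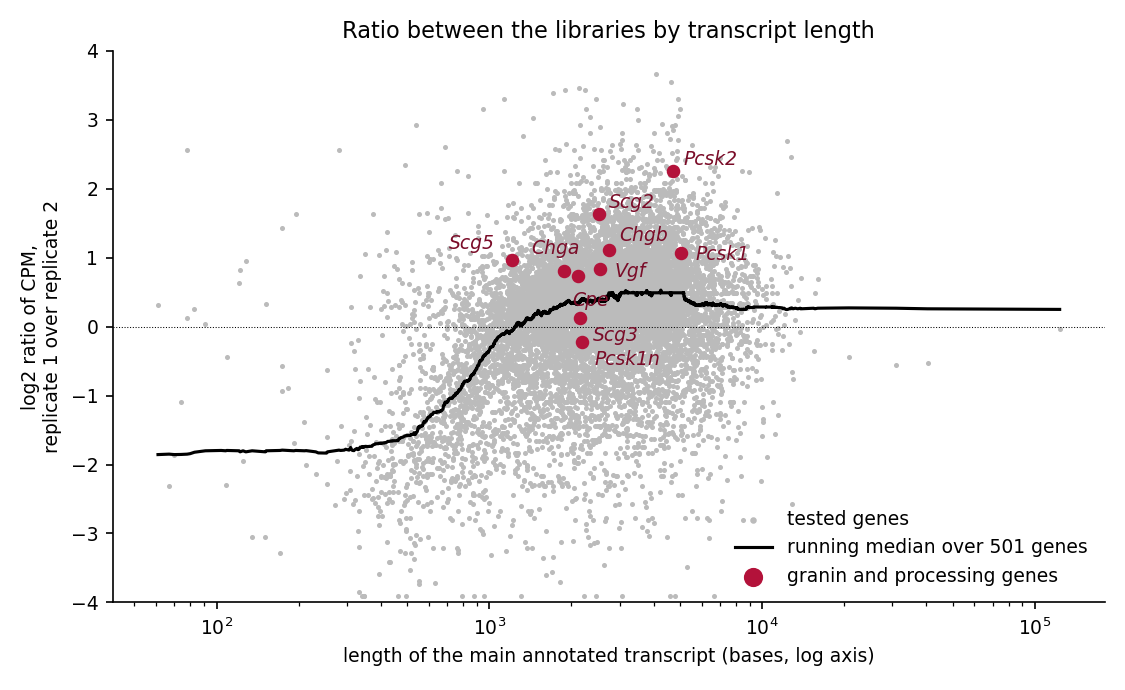
Log2 ratio of CPM, replicate 1 over replicate 2, against the length of the main annotated transcript (log axis) for the tested genes with an annotated transcript (grey, with 62 genes outside the axis) and the 10 granin and processing genes (red), with the running median over 501 genes (line). Scg3 and Pcsk1n lie below the line and the other 8 genes above it.

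Counted per read of the chromaffin transcript Th, a ratio that scaling does not touch, the members kept unequal proportions. Chgb had 1.84 reads per Th read in replicate 1 (95% interval 1.74 to 1.94) and 1.91 in replicate 2 (1.78 to 2.04), which overlap. Chga had 1.68 (1.59 to 1.78) in replicate 1 and 2.16 (2.02 to 2.31) in replicate 2. Scg2 had 0.633 (0.591 to 0.678) in replicate 1 and 0.459 (0.416 to 0.505) in replicate 2. Cpe had 0.339 (0.311 to 0.368) in replicate 1 and 0.460 (0.418 to 0.507) in replicate 2. Pcsk1n had 0.0428 (0.0343 to 0.0527) in replicate 1 and 0.113 (0.0945 to 0.133) in replicate 2. Per Th read, Scg2 was thus higher in replicate 1 and Chga, Cpe and Pcsk1n were lower there, with intervals that do not overlap. These directions rest on 1 chromaffin marker, and Th was itself 2.25-fold higher in replicate 1. Of the 10 chromaffin markers, 4 were higher and 1 lower in replicate 1. Pnmt, with a ratio of 0.903, did not pass the threshold, so another marker could give other directions.

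Among the other proprotein convertases, 4 of 6 tested genes were higher in replicate 1 and 0 lower, beside 22.2% higher and 13.0% lower of all genes tested. Pcsk5 had 144.4 and 107.4 CPM in replicates 1 and 2, Mbtps1 (site-1 protease) 129.3 and 50.6 CPM and Pcsk7 51.7 and 26.1 CPM in replicates 1 and 2, so that each exceeded Pcsk1 and Pcsk2 in both libraries. Of 9 trimming and finishing enzymes, 3 were higher and 1 lower in replicate 1, against the same background. In replicates 1 and 2, Ctsb (cathepsin B) had 1511 and 978 CPM, Ctsl (cathepsin L, a lysosomal protease also found in secretory granules) had 308 and 391 CPM and was the one lower, and Pam, which amidates peptide ends, had 139.0 and 95.9 CPM.

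Few of the peptide precursors that share the granule had enough reads to test. Of 6 tested among 16, 1 was higher and 1 lower in replicate 1, with a median log2 ratio of -0.01, beside the background of 22.2% higher and 13.0% lower. Npy (neuropeptide Y) had 169.2 CPM in replicate 1 and 470.3 CPM in replicate 2 and was lower in replicate 1 (Fisher's exact test, adjusted p = 7.2e-34). Penk, the enkephalin precursor, had 58.2 and 39.9 CPM and Nucb2 38.8 and 26.9 CPM in replicates 1 and 2, neither past the threshold. Adcyap1, Sst and Nppa had 0 reads in both libraries. Of 14 tested genes of granule assembly and membranes, 4 were higher and 0 lower in replicate 1, against that background. In replicates 1 and 2, Rab2a had 410.6 and 418.9 CPM, Cyb561 566 and 250.1 CPM, and Dbh, the granule enzyme that makes noradrenaline, 295.3 and 132.7 CPM.

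Each read was assigned to a transcript model, and the models were classed as Known (an annotated transcript), ISM (a fragment whose introns match part of one), NIC (annotated splice sites in a new combination), NNC (at least 1 unannotated splice site) or Genomic (within the gene, mostly without splicing). Most reads of the members were assigned to an annotated transcript. The Known share of Chga was 88.7% in replicate 1 and 74.9% in replicate 2, that of Scg2 94.9% and 81.1%, that of Pcsk1n 96.7% and 80.1%, and that of Cpe 92.2% and 88.3% in replicates 1 and 2. Chgb went the other way, with 83.2% in replicate 1 and 88.2% in replicate 2. The median over all genes was 83.7% in replicate 1 and 75.0% in replicate 2.

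Of 7 members with at least 20 reads in both libraries, the Known share was higher in replicate 1 for 3 and lower for 1 (Fisher's exact test with Benjamini-Hochberg adjustment over 6342 genes). The background was 19.7% of genes higher and 0.568% lower. The adjusted p was 1.5e-45 for Chga, 1.4e-18 for Scg2, 0.0016 for Pcsk1n and 5.2e-07 for Chgb, the member with the lower share in replicate 1. Cpe (0.084), Scg3 (0.55) and Scg5 (0.65) did not pass, with shares in replicates 1 and 2 of 92.6% and 80.0% for Scg3 and 84.4% and 78.2% for Scg5.

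**Figure D3:**
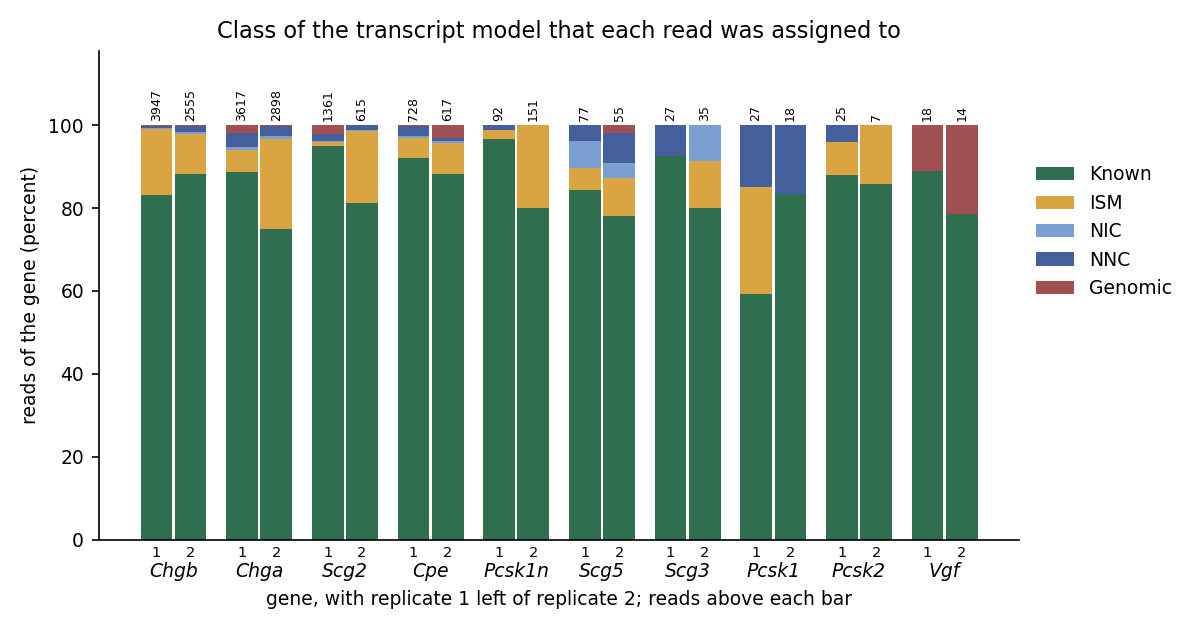
Percent of the reads of each gene in each class of transcript model, with replicate 1 left of replicate 2 and the number of reads above each bar. Chga, Scg2 and Pcsk1n have a larger ISM share in replicate 2, and Chgb has a larger one in replicate 1.

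The Chgb fragments were of one kind. A single ISM model made of exons 4 and 5 of Chgb-201 (chr2:132792330-132795079 on mm10, plus strand, 2094 bases) held 604 of 3947 Chgb reads in replicate 1, or 15.3% (95% Clopper-Pearson interval 14.2 to 16.5), and 194 of 2555 in replicate 2, or 7.59% (6.60 to 8.69). Exon 4 is the large coding exon of 1766 bases. Here and below, an exon is counted as in a model that overlaps it by any base. Exon 3 was in the model of 84.4% of Chgb reads in replicate 1 and 91.6% in replicate 2, and exon 4 in 100% and 99.6% in replicates 1 and 2, so the step lay between these exons in both libraries. Reads take the ends of their model, and the place where each read begins is not recorded.

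Chga fragments were of several kinds, and exon use fell over several steps towards the 5′ end. Exon 1 of Chga-201 was in the model of 94.7% of reads in replicate 1 (93.9 to 95.4) and 79.6% in replicate 2 (78.1 to 81.1), exon 5 in 95.8% and 85.0%, and exon 8, the last, in 99.9% and 97.9% in replicates 1 and 2. Replicate 2 held 248 reads on a single-exon model equal to exon 8 (419 bases), or 8.56% of its Chga reads (7.56 to 9.64). In replicate 1 the single-exon reads, 66 or 1.82% (1.41 to 2.32), lay on a Genomic model that spans exons 7 and 8 with the intron between them. Cpe had exon 1 in 94.4% of reads in replicate 1 and 89.1% in replicate 2 and its last exon in 100% of both. Scg2 had exon 1 in 96.8% of reads in replicate 1 and 82.3% in replicate 2. Its single-exon reads were 27 of 1361 in replicate 1, or 1.98% (1.31 to 2.87), and 99 of 615 in replicate 2, or 16.1% (13.3 to 19.2), all 99 on 1 model of 1263 bases. Pcsk1n had 0 of 92 single-exon reads in replicate 1, which allows a share of up to 3.93%, and 21 of 151, or 13.9% (8.82 to 20.5), in replicate 2, on a model of 327 bases within exon 3.

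**Figure D4:**
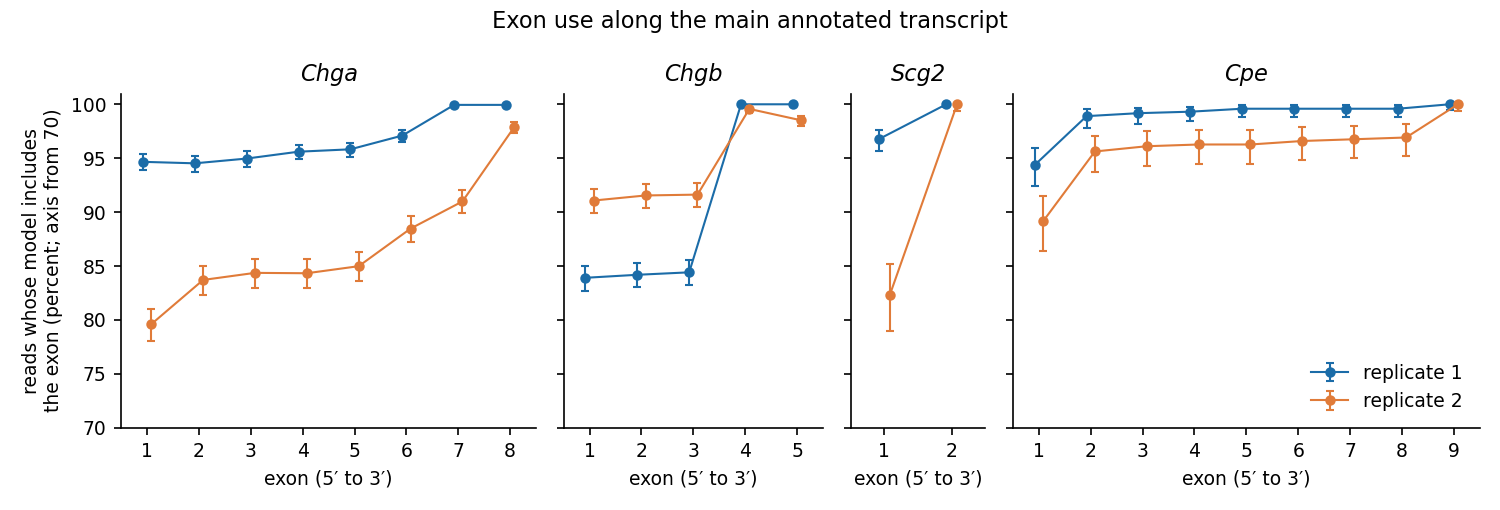
Percent of reads whose model overlaps each exon of Chga-201, Chgb-201, Scg2-201 and Cpe-201 by any base, from 5′ to 3′. Replicate 1 is blue and replicate 2 orange, with 95% Clopper-Pearson intervals and an axis that starts at 70%. At exon 1, Chga and Scg2 stand at 94.7% and 96.8% in replicate 1 and at 79.6% and 82.3% in replicate 2, and Chgb steps between exons 3 and 4 in both libraries.

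Isoform choice within the annotation was narrow. All Known reads lay on 1 transcript for Chga (Chga-201, 8 exons, 463 codons, chr12:102554969-102565028, plus strand), Chgb (Chgb-201, 5 exons, 677 codons, chr2:132781278-132795079, plus), Cpe (Cpe-201, 9 exons, 476 codons, chr8:64592542-64693054, minus), Pcsk1n (Pcsk1n-201, 3 exons, 258 codons, chrX:7919822-7924410, plus), Scg5 (Scg5-201, 6 exons, 212 codons, chr2:113776362-113829121, minus), Pcsk1 (Pcsk1-201, 14 exons, 753 codons, chr13:75089826-75134861, plus) and Pcsk2 (Pcsk2-201, 12 exons, 637 codons, chr2:143546156-143816285, plus). Chgb and Pcsk1n have 1 annotated transcript each, so their Known reads could lie on no other. Chga and Pcsk1 have 3 annotated transcripts, Cpe 4, and Scg5 and Pcsk2 2, and the others of these genes had no Known reads. Chains of Cpe and Scg5 that lack the first intron of the main transcript are given below. Vgf-201 (2 exons, 617 codons, chr5:137030295-137033351, plus) held 16 of 16 Known reads in replicate 1 and 10 of 11 in replicate 2, where 1 read lay on Vgf-203. Chga and Chgb share the length of 2 internal exons, with 47 bases in exon 2 and 94 bases in exon 3 of both. The precursors differ in how many pairs of adjacent basic residues (lysine or arginine) their coding sequence holds, the signal that convertases cut at: 23 in Chgb, 16 in Vgf, 9 in Chga, 9 in Scg2 and 7 in Scg3, counting overlapping pairs.

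Scg2 and Scg3 were the exceptions, each with 2 annotated transcripts in use, and those of Scg2 were in near equal use. Scg2 lies at chr1:79434669-79440120 on the minus strand. Scg2-201 has 2 exons, with all 617 codons in the second. Scg2-202 removes 120 bases from inside that coding exon (chr1:79435932-79436051), which leaves 577 codons in the same frame. The removed bases are shown here in capitals, within 15 exonic bases on each side as they stand in Scg2-201 (GENCODE M21, chr1:79435917-79436066, minus strand), because the choice between the 2 forms turns on them.
Scg2 intron within the coding exon: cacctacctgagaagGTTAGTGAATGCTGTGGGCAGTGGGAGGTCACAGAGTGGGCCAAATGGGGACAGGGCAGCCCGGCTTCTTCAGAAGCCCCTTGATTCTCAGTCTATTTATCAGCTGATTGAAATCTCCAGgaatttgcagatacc
The capitals begin with GT and end with AG, the usual ends of an intron, and codons 318 to 358 are touched. The bases at the 2 ends repeat, so that the junction could be placed at other positions over 3 bases without a change in the spliced sequence. Both forms hold 9 pairs of basic residues.

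Scg2-202 held 658 of 1292 Known reads in replicate 1, or 50.9% (95% Clopper-Pearson interval 48.2 to 53.7), and 219 of 499 in replicate 2, or 43.9% (39.5 to 48.4). The mean was 47.4% ± 4.98 (SD, n = 2). Counting every read that crosses the site, whatever its class, the 120 bases were spliced out in 687 of 1326 reads in replicate 1, or 51.8% (49.1 to 54.5), and 232 of 513 in replicate 2, or 45.2% (40.9 to 49.6). A further 35 reads in replicate 1 and 102 in replicate 2 did not cross it, among them the 99 reads of the single-exon model in replicate 2, which begins at its 5′ end with the first base after the intron. With such reads counted as spliced, a count chosen after the data were seen, the share was 687 of 1326 reads in replicate 1, which had 0 of them, and 331 of 612 in replicate 2, or 54.1% (50.04 to 58.1). Counted so, the share was higher in replicate 2, with intervals that overlap. This count follows the model each read was assigned to. The place where a read begins is not recorded, so whether the 99 reads were spliced is not known. None of the 27 single-exon reads of replicate 1 was counted this way. The share of Scg2-201 did not differ between the libraries past the threshold (49.1% in replicate 1 and 56.1% in replicate 2, Fisher's exact test, adjusted p = 0.19 over 3040 genes, unadjusted p = 0.0084). The background of that test was 2.17% of genes, and of the 2 members with enough reads 0 passed and 1 had an unadjusted p under 0.05.

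Scg3 used 2 splice donors of exon 9. Scg3 lies at chr9:75643189-75684056 on the minus strand, and Scg3-201 keeps 15 bases at the end of exon 9 (chr9:75663193-75663207) that Scg3-202 lacks, which makes 471 codons against 466. The 15 bases are shown in capitals with 15 bases of Scg3-201 on each side, as the stretch that tells the forms apart.
Scg3 exon 9 end: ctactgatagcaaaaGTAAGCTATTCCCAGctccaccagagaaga
The capitals themselves begin with GTAAG, the letters of a common splice donor. The short form took 15 of 27 reads across the site in replicate 1, or 55.6% (35.3 to 74.5), and 21 of 31 in replicate 2, or 67.7% (48.6 to 83.3). The mean was 61.6% ± 8.62 (SD, n = 2), and the share of Scg3-202 among Known reads had an adjusted p of 1 between the libraries (Fisher's exact test).

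**Figure D5:**
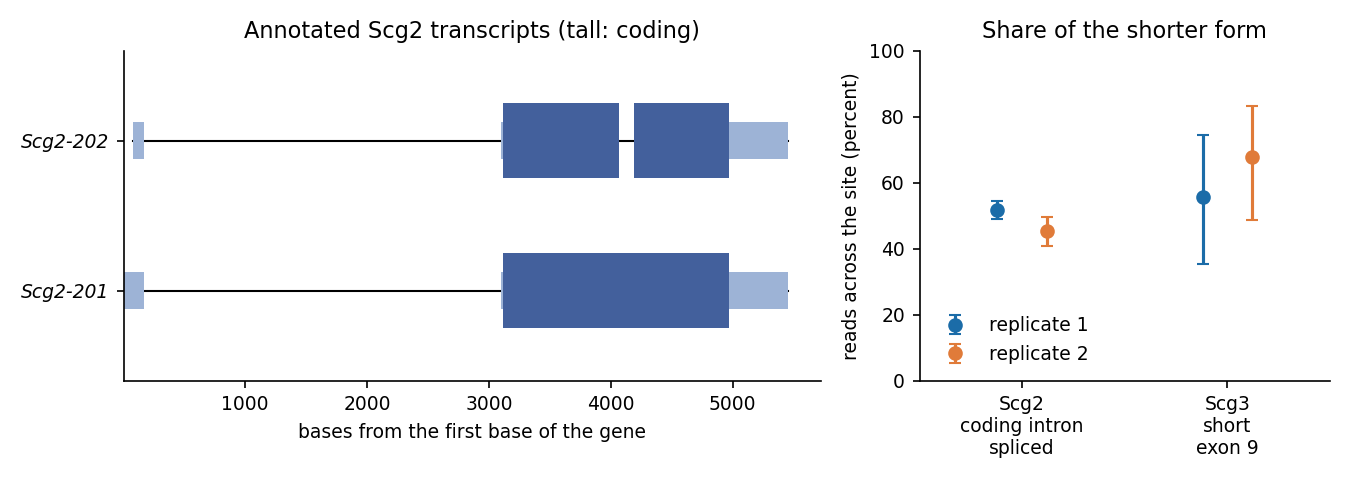
Left, the annotated Scg2 transcripts drawn to scale in bases from the first base of the gene, with coding parts tall. Right, percent of reads across the site that used the shorter form of Scg2 (51.8% in replicate 1 and 45.2% in replicate 2) and of Scg3 (55.6% in replicate 1 and 67.7% in replicate 2), with 95% Clopper-Pearson intervals.

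Unannotated splicing was a small share of reads and spread over many chains. NIC and NNC models of the 10 genes formed 144 intron chains, with 239 reads in replicate 1 and 162 in replicate 2. Of these chains 36 were found in both libraries, with 155 and 107 reads in replicates 1 and 2. Chga had 65 chains, 19 of them in both, with 116 and 67 reads in replicates 1 and 2, and Chgb had 30 chains, 8 of them in both. Vgf had none. The Chga chain with most reads in the smaller library extended exon 7 by 4 bases at its donor, with 16 reads in replicate 1 and 9 in replicate 2. The next did the same at the donor of intron 5, with 7 and 12 reads in replicates 1 and 2. As the only change, a donor moved by 4 bases recurred in 6 chains of 3 genes (Chga, Chgb and Cpe). These 6 chains had 29 and 39 reads in all in replicates 1 and 2, of which the Chgb chain at intron 3 had 3 and 15.

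Chga also skipped whole exons. A chain without exon 4 (69 bases) had 6 reads in each library, and one without exon 2 (47 bases) had 10 and 5 reads in replicates 1 and 2. In 6 chains found in both libraries the acceptor of exon 5 lay 20 to 41 bases inside the exon, with 52 reads in replicate 1 and 17 in replicate 2. The largest of these moved it by 23 bases and had 15 and 4 reads in replicates 1 and 2. In Chgb a chain that removes 1608 bases of exon 4 from its 3′ side had 3 reads in each library. In Scg2 a chain of 4 exons and 2115 bases, with a further intron of the coding exon, had 10 reads in replicate 1 and 1 in replicate 2. In Cpe a chain of 1772 bases built from annotated introns other than the first of Cpe-201 had 3 and 2 reads, and in Scg5 one of 1446 bases had 4 and 1 reads in replicates 1 and 2. Whether these splice sites are real was not tested with other data.

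The promoters of several members carry the cAMP response element, an 8-base site bound by factors of the CREB family and known from chromogranin genes. RefSeq promoter windows (build GRCm38.p6, 250 bases before to 50 after the start) were found for 8 of the 10 members. The palindrome TGACGTCA was in 3 of these and in 1.79% of all 32851 windows, and its shorter core TGACG, on either strand and including the palindromes, in 7 of 8 and in 20.8% of all. A stretch of 60 bases is shown for the members with the palindrome and for Chga, which has the core only, with the motif in capitals. The stretches lie at chr1:79440061-79440120 (Scg2, minus strand), chr2:132781544-132781603 (Chgb, plus), chr13:75089753-75089812 (Pcsk1, plus) and chr12:102554871-102554930 (Chga, plus).
Scg2: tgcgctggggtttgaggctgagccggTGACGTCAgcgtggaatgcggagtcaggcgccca
Chgb: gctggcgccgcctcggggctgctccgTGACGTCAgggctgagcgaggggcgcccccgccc
Pcsk1: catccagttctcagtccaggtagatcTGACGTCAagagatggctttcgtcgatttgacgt
Chga: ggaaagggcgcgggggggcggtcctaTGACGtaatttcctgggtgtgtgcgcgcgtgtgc
The motif begins at -68 in Scg2, -72 in Chgb, -78 in Pcsk1 and -44 in Chga, counted from the RefSeq start. Pcsk1 has a second core on the same strand at -50, left in lower case near the end of its stretch. The GENCODE models to which the reads were assigned begin elsewhere for some genes: Chgb-201 starts at 132781278, upstream of the RefSeq start at 132781642, so the Chgb motif lies inside the first exon of Chgb-201. Likewise the Scg2 motif and the whole Scg2 stretch lie inside the first exon of Scg2-201, while the motif is in no exon of Scg2-202. The Pcsk1 and Chga motifs lie in no exon of their genes' annotated transcripts. A match of letters is a description and says nothing about binding.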

How the data were processed

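Long-read RNA-seq of adrenal gland gave 1 group with 2 replicates. The deposited tables give counts, raw long reads per transcript model and library with no normalization, and the deposited annotations give each model's exons on mm10, per the file headers. Models are GENCODE M21 transcripts, spike-ins and models added by TALON; the sources used here name no version of the aligner or of TALON. Reads were summed per gene and scaled to CPM over annotated genes, without spike-ins. Each gene with at least 10 reads in total was tested by Fisher's exact test (scipy 1.17.1), Benjamini-Hochberg adjustment, threshold 0.05; 0.5 reads were added before log2. Shares of transcripts and of Known reads used genes with at least 20 reads per library. Intervals are exact Poisson or Clopper-Pearson at 95%; they and the limit of 3 reads for a count of 0 cover counting error only. Ratios of gene reads take their interval from the binomial share. Alternatives used edgeR 4.0.16 TMM factors (1.10 and 0.913 in replicates 1 and 2), DESeq2 1.42.0 size factors (0.922 and 1.08), other model classes, no filter, the ratio expected from length, and a 2-fold minimum. The scripts were tested on simulated data. The members and lists were chosen with earlier results of these data known. Named were all members, the 3 genes of each list with the highest mean CPM and those with 0 reads in both libraries, transcripts with 5% or more of Known reads, and up to 5 chains per gene found in both libraries; fragments with 5% or more of a gene's reads and the grouped chain patterns were chosen after their values were seen. Transcript sequences are from GENCODE M21 and promoters from RefSeq. Read ratios of all 45 pairs of members were compared between the libraries by Fisher's exact test; unadjusted p-values are given for the ratios described, and none adjusted over the members alone.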

Additional observations from a re-analysis of the deposited data

Results flagged for a closer look

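Antisense reads over Cpe exceeded the 3 reads that a count of 0 allows: 9 in replicate 1, on 1 model at chr8:64686294-64692639, and 7 in replicate 2, of which 4 lay at chr8:64690952-64692639, beside 728 and 617 sense reads of Cpe in replicates 1 and 2. Both models end at the same base, within the first intron of Cpe-201. The other 9 members had 0 to 2 antisense reads in each library.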

How the results depend on the processing

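Of the counts of genes called, those of members higher in replicate 1 stayed at 6 or 7 except with a 2-fold minimum, which left 4. Pcsk1n gave 1 member lower with TMM factors, with DESeq2 size factors and against the ratio expected from length. All genes higher in replicate 1 fell to 1328 with TMM factors, 1347 with DESeq2 size factors, 1096 against length and 1210 with the 2-fold minimum, while those lower were 1981, 1964, 1448 and 1127. The log2 ratio of Scg3, not past the threshold, changed sign to -0.14 with TMM factors, -0.13 with DESeq2 size factors and -0.24 against length. The cause of the changes with scaling was not tested. Without the Genomic models, and with 5 Known reads in place of 20, the counts of members with a changed share were within 1.5 times. An alternative chosen after seeing the data counted reads on the model that begins at the acceptor of the Scg2 coding intron as spliced. The mean spliced share was then 52.9% ± 1.61, against 48.5% ± 4.66 without them (SD, n = 2). Where those reads begin is not recorded. Left out in turn, a replicate leaves the other's level. No paired analysis was possible because a single group was sampled. Depth limits Pcsk1, Pcsk2, Scg3 and Vgf, each with 35 or fewer reads in either library.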
